A study of Mus musculus with 12 samples.

Results

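RNA of granulocyte-monocyte progenitors (GMP) was set against RNA of hCD4- pre-pro-B cells, the question being how the transcriptome of a myeloid progenitor differs from that of an early B lineage cell in mice that carry a reporter of Cebpa activity. Of the 12 arrays of the series, 4 enter the comparison, chosen by their labels: 2 of GMP sorted as positive for human CD4 (hCD4) and 2 of pre-pro-B cells sorted as negative for it, with all genes on the array described. The cells came from bone marrow of female C57BL/6 mice aged 16 weeks, and no treatment is given. Both groups share the transgene, in which enhancer and promoter sequence of Cebpa drives hCD4 at the cell surface. They differ in the lineage gate and in the reporter gate at once, and these cannot be told apart here. The series title speaks of 2 mice, but no label links a replicate number to a mouse. The p-values therefore reflect only how far these samples differ, which may be technical. RNA was amplified, labelled with Cy3 and hybridised to a mouse array in 1 colour.

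GMP give rise to neutrophils and monocytes, and they begin to make the peroxidase and serine proteases that are stored in primary granules. Their formation depends on the transcription factors C/EBPα, encoded by Cebpa, and PU.1, encoded by Sfpi1 (now Spi1). Pre-pro-B cells stand at the start of the B lineage, use the receptors for interleukin 7 and Flt3 ligand, and precede the full action of the B lineage factors EBF1 and PAX5. An isoform of the surface phosphatase Ptprc that marks B lineage cells is also carried by plasmacytoid dendritic cells, which make type I interferon and depend on the factor TCF4.

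Each level given here is a log2 value relative to the 75th percentile of the same array, so 0 is the brightness of that percentile, and each change is the GMP mean minus the hCD4- pre-pro-B mean on that scale. Levels of different genes come from different probes and are not compared. The 4 arrays lay together on slide 1, and the other groups lay on the other slides. The percentile itself had a signal of 946 and 654 on the GMP arrays and of 358 and 246 on the hCD4- pre-pro-B arrays, which were the dimmest of the 12. Spike-in controls lay 3.68 and 3.96 above the percentile on the GMP arrays and 6.23 and 6.36 above it on the hCD4- pre-pro-B arrays. Probes well above background made up 50.97% to 52.29% of the 4 arrays, and no spot was saturated.

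The labels were first checked against marker genes. Cebpa, whose regulatory sequence drives the reporter, lay at 1.97 and 1.59 on the GMP arrays and at -0.54 and -1.41 on the hCD4- pre-pro-B arrays. It rose in GMP by 2.75 (standard error 0.49, n = 2 against 2, adjusted p = 0.00125), and it was well above background on all 4 arrays. On the hCD4+ pre-pro-B arrays Cebpa lay at -0.344 and -0.632, overlapping the hCD4- pre-pro-B arrays. On the hCD4+ pro-B arrays it lay at -1.443 and -1.943, and on the hCD4- pro-B arrays at -5.378 and -6.828. Its rise in GMP is therefore no check of the reporter gate, and whether Cebpa follows that gate was not tested. The lymphoid genes Il7r and Dntt were high on the hCD4- pre-pro-B arrays (Il7r at 3.56 and 3.62, Dntt at 5.42 and 5.35) and low in GMP. Ebf1 (-6.44 and -6.01) and Pax5 (-6.57 and -6.01), which define committed B cells, were not well above background on any of the 4 arrays. On the pro-B and pre-B arrays of the series the Ebf1 probe lay between 3.48 and 4.15. Of 26 kept genes listed for plasmacytoid dendritic cells, 25 were lower in GMP. How many cells of each type the sorted samples held was not tested, and in such bulk samples fewer cells of a type and less RNA per cell cannot be told apart.

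The transcriptomes differed widely. Of 18547 genes kept because both arrays of some group, of the 6, measured them well above background, 12151 (65.5%) differed between GMP and hCD4- pre-pro-B arrays at an adjusted p under 0.05 in limma. Of all kept genes 34.7% rose in GMP (6445 genes) and 30.8% fell (5706 genes), and none of these had overlapping arrays. With 2 arrays a group this is common: the arrays did not overlap in 14774 of the 18547 kept genes. Beyond 4-fold, 1663 genes rose (8.97%) and 1733 fell (9.34%). Counts in the lists below are to be read against the 34.7% of all kept genes that rose and the 30.8% that fell. A list with counts near these shares shows nothing particular to it. The median change over all kept genes was -0.04 and its standard deviation 1.87. Replicate arrays correlated at 0.990 in GMP and 0.982 in hCD4- pre-pro-B cells across genes, against 0.852 between the group means. The split between rises and falls depended on the scaling. Rises made up 53.04% of the calls, 69.1% with each array set to its own median (8446 higher, 3775 lower), 40.1% after normexp background correction (5613 higher, 8368 lower), and 95.8% relative to the spike-in controls (15707 higher, 695 lower). These scalings moved the median change of all genes to 0.41, -0.33 and 2.44, and changes are to be read relative to the bulk of genes on the same array. Falls smaller than that last shift turn into rises relative to the spike-in controls, falls somewhat larger lose their call there, and each bound on a fall shrinks by about the same shift. Of the medians of 20 gene lists described here, none changed sign under the alternatives other than spike-in scaling, but their size was less steady. It moved by over 1.5 times in 6 after normexp, in 9 after normexp with quantile normalization and in 10 in the authors' table. With only probes well above background on all 4 arrays it did so in 8.

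**Figure D1:**
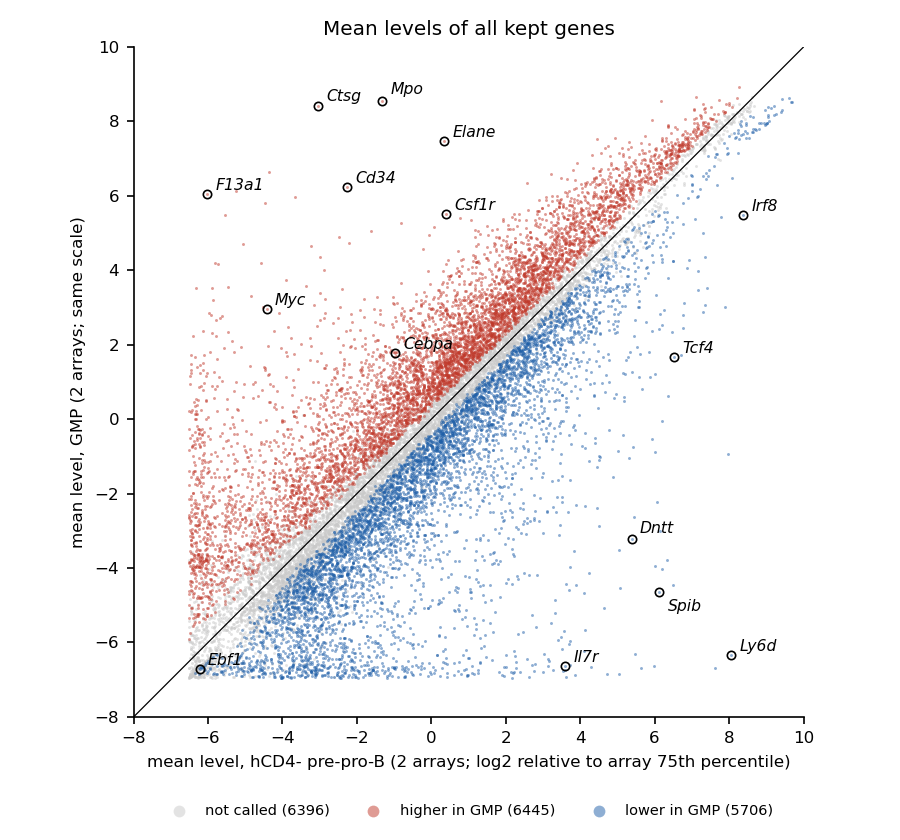
Mean level of each kept gene in GMP (vertical, 2 arrays) against hCD4- pre-pro-B cells (horizontal, 2 arrays), both in log2 relative to the array's 75th percentile, coloured by the call at an adjusted p under 0.05. Points lie on both sides of the line of equal level, 6445 called higher and 5706 called lower in GMP, and Ctsg, Mpo and Ly6d stand at the edges.

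Genes listed for neutrophil primary granules had the highest median change of the lists. One of them, Prg2, also stands in the list of basophil, mast cell and eosinophil genes, so its rise counts in both. All 17 members of the list were kept, all 17 rose in GMP, and their median change was 7.14 against -0.04 over all kept genes. Mpo, the granule peroxidase, lay at 8.31 and 8.80 in GMP and at 0.52 and -3.15 on the hCD4- pre-pro-B arrays. The GMP arrays were close to each other, while the hCD4- pre-pro-B arrays were far apart and both below GMP. The change was 9.87 (standard error 1.26, adjusted p = 0.000176), and a second Mpo probe, well above background on 1 hCD4- pre-pro-B array, gave 11.89. Ctsg, which encodes the protease cathepsin G, had levels of 8.30 and 8.55 in GMP and of -1.76 and -4.32 on the hCD4- pre-pro-B arrays, only 1 of which was well above background. It rose by 11.47 (standard error 0.83, adjusted p = 6.37e-06). Elane, which encodes neutrophil elastase, lay at 7.33 and 7.63 against 0.10 and 0.59 and rose by 7.14 (standard error 0.26, adjusted p = 1.69e-07). Its groups lay much further apart than the replicates of either.

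Several genes of the primary granule list could only be bounded, because neither hCD4- pre-pro-B array was well above background. Prtn3, encoding proteinase 3, had levels of 5.73 and 5.23 in GMP and was at least 811-fold higher. Ms4a3, a membrane protein gene of granulocyte-monocyte progenitors (6.09 and 6.17 in GMP), was at least 1270-fold higher. Hp, which encodes haptoglobin, was at least 934-fold higher, Igsf6 at least 332-fold and Lyz1, a lysozyme gene, at least 168-fold. Smaller rises in the same list were those of Serpinb1a, an inhibitor of granule proteases (6.08), Prssl1 (now Prss57), a further granule protease gene (4.68), and Srgn, which encodes the proteoglycan that packs granule contents (1.78). Nkg7 rose by 4.29 on one probe and was at least 293-fold higher on another.

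The promoters of the 4 best known protease and peroxidase genes of the list are shown because they rose together, and because GAGGAAG, a word of the kind that PU.1 binds, occurs in each of them. They are the 250 bases before and 50 bases after the RefSeq start, on GRCm38.p6, 5′ to 3′ on the strand of the gene, with each GAGGAAG word in capitals. Elane lies at chr10:79886062-79886361 on the plus strand, Prtn3 at chr10:79879417-79879716 on the plus strand, Mpo at chr11:87793534-87793833 on the plus strand and Ctsg at chr14:56102525-56102824 on the minus strand.
Elane: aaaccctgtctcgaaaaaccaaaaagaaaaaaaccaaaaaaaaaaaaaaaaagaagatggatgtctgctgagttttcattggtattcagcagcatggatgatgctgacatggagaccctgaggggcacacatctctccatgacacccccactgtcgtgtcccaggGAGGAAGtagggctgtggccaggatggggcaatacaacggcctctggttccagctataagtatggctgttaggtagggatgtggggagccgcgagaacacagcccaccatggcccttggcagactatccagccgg
Prtn3: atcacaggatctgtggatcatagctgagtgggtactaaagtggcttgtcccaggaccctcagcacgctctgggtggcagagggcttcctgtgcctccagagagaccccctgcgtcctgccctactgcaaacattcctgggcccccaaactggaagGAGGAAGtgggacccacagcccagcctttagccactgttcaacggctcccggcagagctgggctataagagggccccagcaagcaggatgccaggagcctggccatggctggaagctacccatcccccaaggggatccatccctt
Mpo: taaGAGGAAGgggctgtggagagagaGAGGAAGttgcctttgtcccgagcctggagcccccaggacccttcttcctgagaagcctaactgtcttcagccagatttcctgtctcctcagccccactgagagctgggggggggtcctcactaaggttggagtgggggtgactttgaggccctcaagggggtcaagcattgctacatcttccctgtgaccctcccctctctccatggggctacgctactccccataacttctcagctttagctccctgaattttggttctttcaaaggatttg
Ctsg: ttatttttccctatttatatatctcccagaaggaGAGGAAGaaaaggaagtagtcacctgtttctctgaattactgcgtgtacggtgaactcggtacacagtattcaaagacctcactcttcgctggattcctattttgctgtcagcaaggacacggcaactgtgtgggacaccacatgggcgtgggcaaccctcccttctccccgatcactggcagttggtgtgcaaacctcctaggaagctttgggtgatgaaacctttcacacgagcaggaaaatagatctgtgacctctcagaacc
Relative to the start of each gene the word begins at -85 in Elane, -95 in Prtn3, -247 and -224 in Mpo and -216 in Ctsg. Searched on both strands, GAGGAAG was found in 5 of the 15 promoters matched to the primary granule list (33.3%) and in 13.6% of all 32851 promoters of the RefSeq table. Among genes beyond 4-fold it was in 14.2% of promoters of those that rose and 16.8% of those that fell, against 13.8% over the kept genes that matched the table. The E protein word CAGCTG and the RUNX word TGTGGT were each found in 5 of the 15 as well (33.3%), and the MYB word CAACTG in 6 (40.0%), so the share with GAGGAAG is not particular to that word. A match describes the letters in this window and shows no binding.

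Of the later neutrophil genes, 14 of 19 listed were kept, 8 rose and 2 fell, with a median change of 3.21 (2.06 with levels under background set to that floor, and 1.90 without hCD4- pre-pro-B replicate 2). Ltb4r1, the leukotriene B4 receptor gene, was at least 123-fold higher in GMP, and Pglyrp1, a peptidoglycan-binding granule protein gene, at least 32.7-fold. Anxa1, encoding annexin A1, lay at 4.76 and 4.56 against -3.38 and -3.12 and rose by 7.91. Genes of mature secondary and tertiary granules were mixed. Lcn2, the siderophore-binding lipocalin, rose by 3.20 and Mmp8, neutrophil collagenase, was at least 4.57-fold higher. Ngp and Retnlg were not well above background on any of the 4 arrays, and Camp, which encodes the antimicrobial peptide CRAMP, lay at -3.41 and -3.39 in GMP and -1.08 and -0.92 on the hCD4- pre-pro-B arrays and fell by 2.40 (other probe -1.03). S100a8 lay at 1.49 and 0.49 in GMP and at -0.22 and -6.13 on the hCD4- pre-pro-B arrays, where the replicates lay further apart than the change of 4.17 (adjusted p = 0.0458, and 0.0848, 0.166 or 0.224 in limma without GMP replicate 2, GMP replicate 1 or hCD4- pre-pro-B replicate 2). The S100a9 arrays overlapped (-0.43 and -2.71 against 0.34 and -3.22, adjusted p = 0.941).

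**Figure D2:**
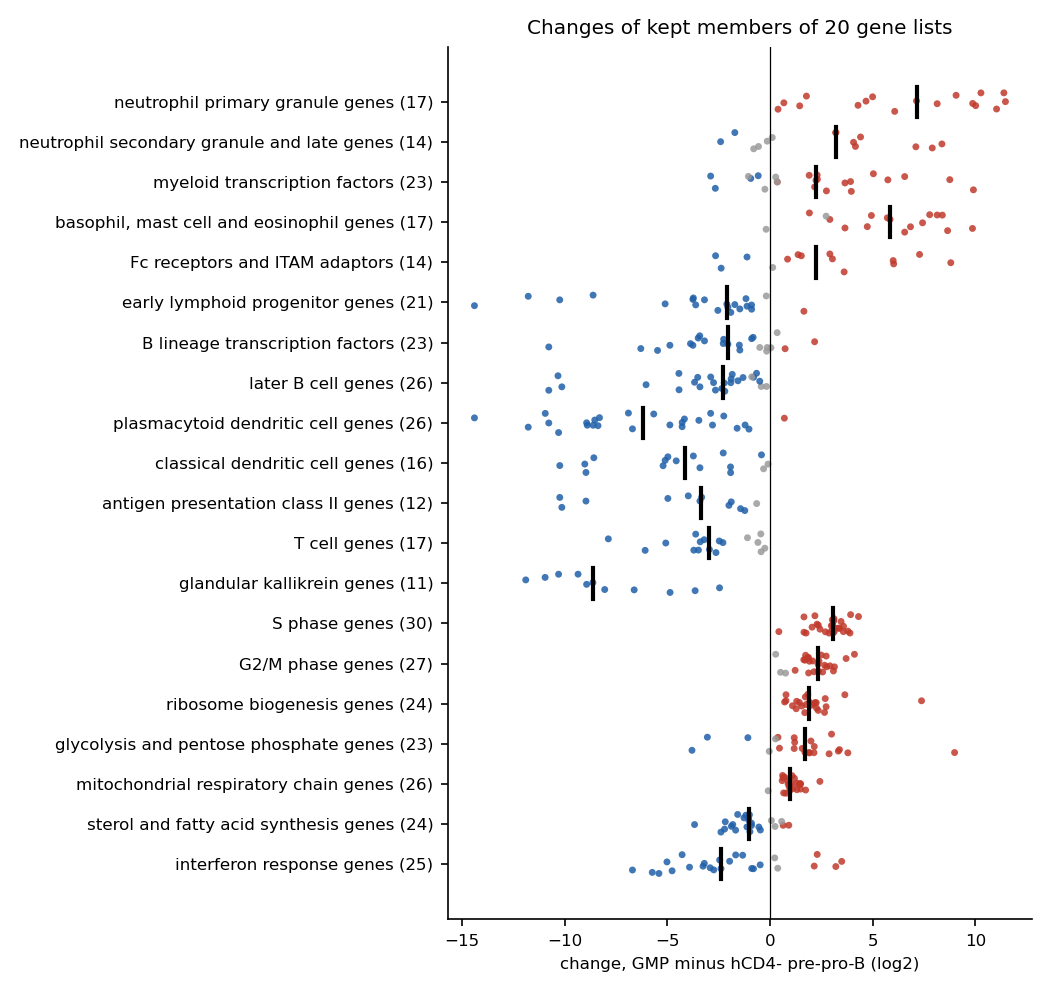
Change of each kept member of 20 gene lists (horizontal, GMP minus hCD4- pre-pro-B, log2), with the number kept in parentheses, the list median as a black bar, members called higher in red, called lower in blue and not called in grey. Medians of the granule, basophil and cell cycle lists lie to the right of 0, and those of the plasmacytoid, class II and kallikrein lists to the left; relative to the spike-in controls the medians of the early lymphoid, B lineage factor, later B cell, sterol and interferon lists turned positive.

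Among 23 kept myeloid transcription factor genes 15 rose and 4 fell, with a median change of 2.24. Cebpe, a C/EBP factor of late granulocyte maturation, lay at 4.17 and 4.19 in GMP, was below background on both hCD4- pre-pro-B arrays (-5.64 and -5.82) and was at least 328-fold higher. Gfi1, a repressor required for neutrophil formation, lay at 3.21 and 3.25 against -1.60 and -2.02 and rose by 5.04 (standard error 0.20, adjusted p = 2.42e-07). Cebpb rose by 2.31 (3.29 and 3.42 against 0.94 and 1.14). In each of these the GMP arrays lay above both hCD4- pre-pro-B arrays by more than the spread of either pair. Sfpi1 had levels of -1.11 and -1.48 in GMP and -3.23 and -3.85 on the hCD4- pre-pro-B arrays, 1 of them well above background, and rose by 2.24 (adjusted p = 0.000182). Nfe2, a factor of megakaryocyte and erythroid cells that is also expressed in granulocytes, was at least 319-fold higher, Tal1 at least 35-fold and Gata2 at least 21.2-fold. Irf8, which promotes monocyte and dendritic fates over neutrophil fate, went the other way. Its levels were 5.50 and 5.48 in GMP and 8.45 and 8.30 on the hCD4- pre-pro-B arrays, a fall of 2.89 (standard error 0.12, adjusted p = 3.92e-07) that was no longer called relative to the spike-in controls. Rara, encoding the retinoic acid receptor alpha, fell by 2.66, and Runx1 (0.35, adjusted p = 0.108), Meis1 (0.28) and Zeb2 (-0.24) did not pass the test.

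Of 18 kept cytokine receptor genes of myeloid cells and progenitors, 9 rose and 5 fell. Kit, the receptor for stem cell factor, lay at 2.52 and 2.70 in GMP and -2.23 and -2.02 on the hCD4- pre-pro-B arrays and rose by 4.74 (standard error 0.18, adjusted p = 1.87e-07). Csf1r, which encodes the M-CSF receptor, lay at 5.44 and 5.58 against -0.01 and 0.79 and rose by 5.12, but its other probes gave 0.68 and 0.37. Csf2ra, the alpha chain of the receptor for granulocyte-macrophage colony-stimulating factor, rose by 1.18 (4.82 and 4.77 against 3.57 and 3.66). The shared beta chain gene Csf2rb fell by 1.70 and its paralogue Csf2rb2 by 4.45 (other probe -3.43), so subunits of one receptor moved in opposite directions, except relative to the spike-in controls, where Csf2rb was 0.78 higher in GMP. The 2 beta chain genes are near copies, and reads of one probe by the other transcript were not tested. Flt3, the receptor that marks lymphoid-primed progenitors and dendritic cells, lay at 0.73 and 0.55 against 4.43 and 4.31 and fell by 3.73 (standard error 0.33, adjusted p = 2.12e-05). Its other probes gave -4.65 and -1.07.

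Csf3r, the receptor for granulocyte colony-stimulating factor, is a known gene of GMP, and its 1 kept probe was bright in both groups, with overlapping arrays. It lay at 6.26 and 6.30 in GMP and 6.21 and 6.86 on the hCD4- pre-pro-B arrays (change -0.25, adjusted p = 0.28). Over all 12 arrays it stayed between 6.21 and 7.08. The probe is shown because part of it is not particular to Csf3r: capitals mark words of 14 bases that occur, on either strand, in at least 10 of the 32851 RefSeq promoters. It lies at chr4:125721478-125721537 on mm9, plus strand, and the commonest of these words occurs in 18 promoters.
Csf3r: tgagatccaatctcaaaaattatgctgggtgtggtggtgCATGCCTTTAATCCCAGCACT
Whether the signal of this probe comes from Csf3r transcripts was not tested, so the change near 0 does not show that the transcript was equal.

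Genes of other marrow lineages rose in GMP as well. Of 17 kept basophil, mast cell and eosinophil genes 15 rose and none fell, with a median change of 5.85 (4.41 with levels under background set to the floor), and 14 of them were below background on both hCD4- pre-pro-B arrays. Hdc, the histamine-forming enzyme, lay at 3.56 and 3.50 in GMP and was at least 209-fold higher, Prg2, a major eosinophil granule protein, at least 179-fold, Cpa3, mast cell carboxypeptidase, at least 120-fold and Mcpt8, a basophil protease, at least 85.8-fold. Epx, eosinophil peroxidase (0.72 and 0.21), was at least 25.1-fold higher. In these genes both GMP arrays were well above background and neither hCD4- pre-pro-B array was. Ms4a2 (adjusted p = 0.07, not well above background on either hCD4- pre-pro-B array) and Tpsb2 (-0.18, adjusted p = 0.771) did not pass the test. How many cells of these lineages the GMP samples held was not tested.

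Erythroid and megakaryocyte genes moved less, and over all kept genes 34.7% rose and 30.8% fell. Of 13 kept erythroid genes 5 rose and 2 fell, and the globin gene Hba-a1 (-4.43 and -4.06 against -4.46 and -3.45) and the erythroid factor Klf1, below background on all 4 arrays, did not pass the test. Gata1, the erythroid and eosinophil factor, was at least 9.39-fold higher in GMP (-0.79 and -1.11). Of 11 kept megakaryocyte genes 7 rose and 2 fell. Pf4, platelet factor 4, lay at 0.21 and 0.01 in GMP and -1.93 and -4.91 on the hCD4- pre-pro-B arrays, with the latter far apart and 1 of them well above background, and rose by 3.53 (adjusted p = 0.00682). Itgb3, the platelet integrin chain, fell by 3.04, a call that ended relative to the spike-in controls. Of 20 kept stem and multipotent progenitor genes 10 rose and 3 fell. Cd34, a surface glycoprotein of progenitors, had the second largest rise among genes measured on all 4 arrays (6.25 and 6.20 against -2.47 and -2.05, change 8.48, standard error 0.97, adjusted p = 9.08e-05; at least 10.4-fold higher by its other probe), while Ly6a, which encodes the stem cell antigen Sca-1, fell by 2.39 (1.57 and 1.53 against 4.17 and 3.72; 0.09 relative to the spike-in controls).

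Monocyte and macrophage genes split. Of 19 kept members 11 rose and 4 fell, against 34.7% and 30.8% of all kept genes. F13a1, coagulation factor XIII subunit A, had levels of 6.01 and 6.08 in GMP, was below background on both hCD4- pre-pro-B arrays and was at least 1200-fold higher, or at least 18.2-fold by its other probe. Ccl9, a chemokine gene, was at least 471-fold higher, and Fn1, fibronectin, at least 16.6-fold. Against these, Mpeg1, the perforin-like protein of phagocytes, fell by 4.42 (2.91 and 2.84 against 7.44 and 7.15), and Ctss, the cathepsin that trims the class II chaperone, by 3.32, a call that ended relative to the spike-in controls. Ly6c1, a surface marker of monocytes and other marrow cells, was bright in both groups and did not pass the test (7.47 and 7.85 against 7.96 and 8.14, adjusted p = 0.449).

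Fc receptors, related lectins and the adaptors that carry their signal were mixed. Of 14 kept genes of that list 10 rose and 3 fell, with a median change of 2.23 (1.16 with levels under background set to the floor). Clec7a, the beta-glucan receptor dectin-1, was at least 130-fold higher in GMP, Trem2 at least 43.1-fold, Clec4d at least 26.4-fold and Clec4e at least 15.1-fold. Tyrobp, the adaptor DAP12, was lower in GMP (5.39 and 5.45 against 7.92 and 7.67, a fall of 2.37), and Fcer1g, the common Fc gamma chain, fell by 1.11; relative to the spike-in controls the changes were 0.10 and 1.37. Of 7 phagocyte NADPH oxidase genes 3 rose and 4 fell. Cybb, the catalytic subunit, lay at -1.33 and -1.02 in GMP and 3.33 and 3.58 on the hCD4- pre-pro-B arrays and fell by 4.63 (adjusted p = 9.06e-05).

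Of 14 kept Toll-like receptor genes and adaptors 5 rose and 8 fell, against 34.7% and 30.8% of all kept genes. The endosomal receptor Tlr7 fell by 3.46 (-0.88 and -0.83 against 2.66 and 2.54; at least 106-fold lower by its other probe), a call lost relative to the spike-in controls (adjusted p = 0.0708). Tlr12 fell by 5.04 and the TLR4 homologue Cd180 by 5.26. Tlr4, the endotoxin receptor, was at least 2.71-fold higher in GMP, a call lost after normexp (adjusted p = 0.822), and Tlr1 at least 4.06-fold. Among the other surface receptors Tlr2 rose by 0.94 and Tlr6 by 1.50, the latter not called after normexp (0.29, adjusted p = 0.167). Among the other endosomal receptors Tlr9 fell by 1.21 (1.27 higher relative to the spike-in controls), and Tlr13 rose by 1.02, a call lost after normexp (0.48, adjusted p = 0.0763). Without GMP replicate 1 its change was 0.69 (adjusted p = 0.065 in limma).

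Early lymphoid genes were mostly lower in GMP. All 21 were kept, 1 rose and 19 fell, with a median change of -2.10 that turned to 0.38 relative to the spike-in controls. Ly6d, a surface protein that marks B-biased lymphoid progenitors, lay at -5.97 and -6.71 in GMP, below background, and at 7.98 and 8.11 on the hCD4- pre-pro-B arrays, at least 6480-fold lower in GMP (adjusted p = 6.79e-09). Il7r, the interleukin 7 receptor alpha chain, lay at -6.78 and -6.51 against 3.56 and 3.62 and was at least 295-fold lower. Dntt, the polymerase that adds bases at V(D)J joints, lay at -3.32 and -3.13 against 5.42 and 5.35 and fell by 8.61 (standard error 0.14, adjusted p = 6.79e-09). In all 3 the groups lay far further apart than their replicates. Ccr9, a chemokine receptor of thymus-homing progenitors and plasmacytoid dendritic cells, was at least 1080-fold lower (at least 160-fold by its other probe), and Ccr7, well above background on 1 GMP array, fell by 5.10. Cd27, a receptor of the tumour necrosis factor receptor family, was the 1 member that rose (1.66).

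Most B lineage factors were lower in GMP, though not all. Of 23 kept, 2 rose in GMP and 16 fell, with a median change of -2.05 (0.43 relative to the spike-in controls). Spib, an Ets factor of B cells and plasmacytoid dendritic cells, lay at 6.08 and 6.16 on the hCD4- pre-pro-B arrays and was at least 1650-fold lower in GMP. Tcf4 (E2-2) lay at 1.42 and 1.90 against 6.26 and 6.80 and fell by 4.87 (other probe -6.34, with 1 GMP array well above background), and Bcl11a, which early B and plasmacytoid cells need, fell by 3.19 (1.60 and 1.57 against 4.80 and 4.76; at least 3.19-fold lower by its other probe). Irf4 was at least 20.5-fold lower, and Ets1 fell by 5.47, Foxo1 by 3.75 and Bach2 by 3.42. The calls of Bcl11a and Bach2 ended relative to the spike-in controls. By contrast Tcf3, the E protein gene required for B commitment, had overlapping levels (1.52 and 1.84 against 1.61 and 2.06, change -0.16, adjusted p = 0.485), and Myb rose by 2.18 (5.57 and 5.83 against 3.45 and 3.60). Ebf1 and Pax5 were at background on all 4 arrays, as given above.

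Genes of the pro-B cell and its pre-B receptor were not uniformly low in GMP: of 25 kept, 6 rose and 12 fell. Cd93, a surface protein of early B and other progenitors, rose by 2.70. Blnk, the adaptor that couples the B cell receptor to its kinases, lay at -2.81 and -3.20 against 6.20 and 6.10 and fell by 9.16 (adjusted p = 6.79e-09). Cd79a, a signalling chain of that receptor, fell by 2.30 from a low level (-2.21 and -1.48) on the hCD4- pre-pro-B arrays, and its change turned to 0.18 relative to the spike-in controls. Igll1, a surrogate light chain gene, was well above background on 1 GMP array alone (-4.54 and -4.55 against -6.60 and -6.11). Vpreb1, its partner, overlapped (-0.90 and -0.97 against -1.29 and -0.79, adjusted p = 0.675). Rag1, a recombinase gene, was well above background on 1 of the 4 arrays (-3.57 and -4.15 on the hCD4- pre-pro-B arrays), and Rag2 on none. Ptprc fell by 3.18 (-0.53 and -0.67 against 2.57 and 2.58), a call that ended relative to the spike-in controls. Of 26 kept genes of later B cells 23 fell and none rose, with a median change of -2.28 (0.20 relative to the spike-in controls). Fcrla, an Fc receptor-like gene of B cells, was at least 322-fold lower in GMP, and Cd72 fell by 4.42. Ms4a1 (CD20) is counted among the falls but was not above background on any of the 4 arrays. Its call was lost under several other settings.

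**Figure D3:**
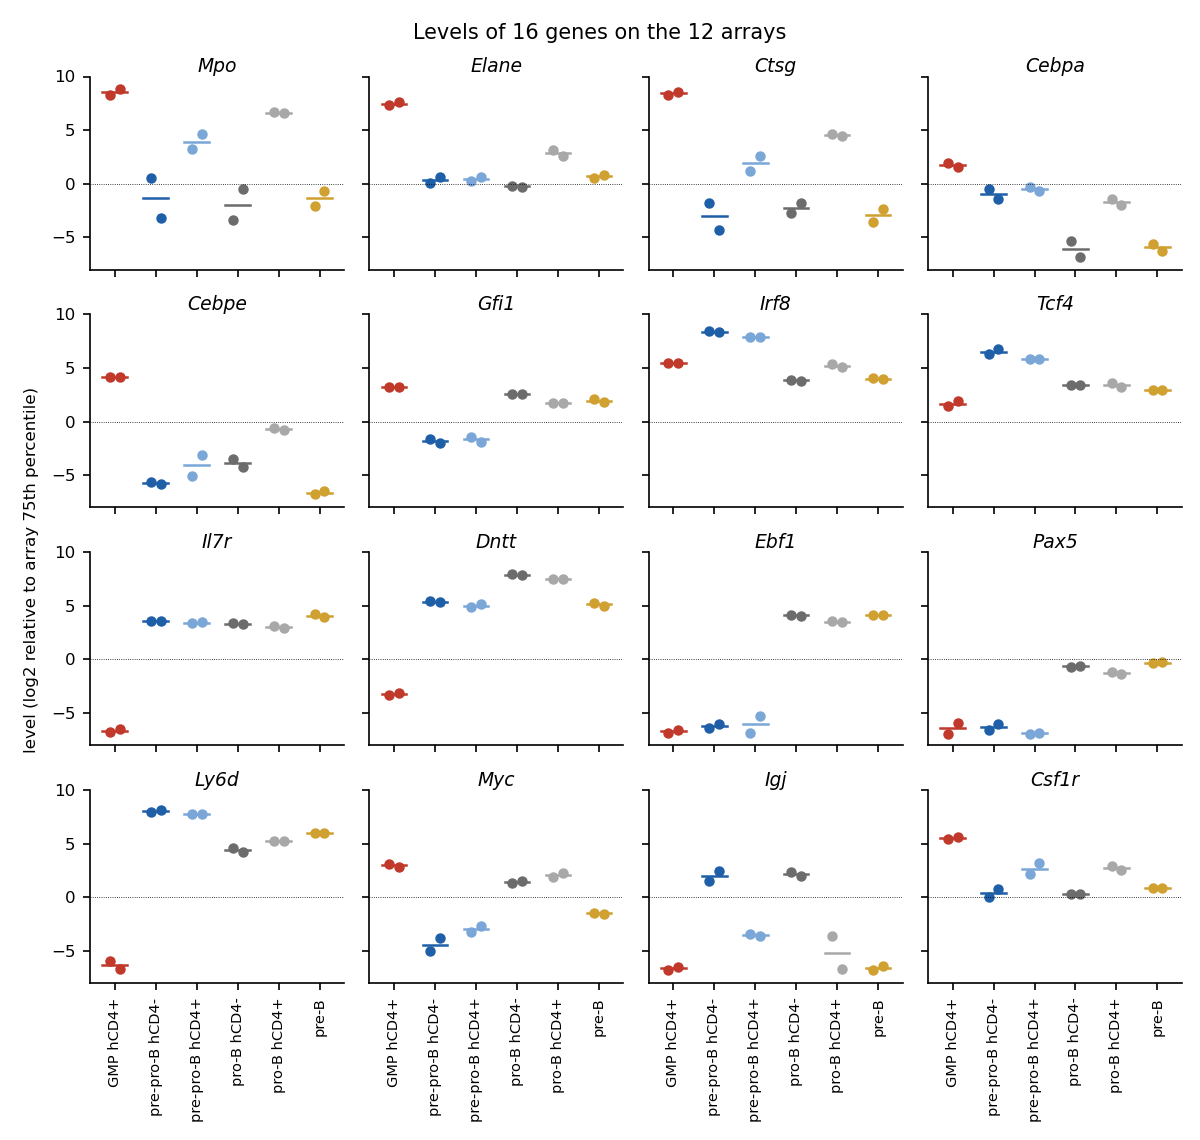
Levels of 16 genes on the 12 arrays (vertical, log2 relative to the array's 75th percentile; points are arrays, bars group means), with GMP and hCD4- pre-pro-B arrays at the left of each panel. Granule genes and Cebpe are highest on the GMP arrays, Ly6d, Tcf4 and Irf8 on the pre-pro-B arrays, and Ebf1 and Pax5 rise above background only on pro-B and pre-B arrays.

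Plasmacytoid dendritic cell genes formed the widest block of falls after the kallikreins. Of 28 listed, 26 were kept, 25 fell in GMP and 1 rose, with a median change of -6.17 (-5.73 with levels under background set to the floor). The median level of the list was -1.10 and -0.88 on the GMP arrays and 5.45 and 5.40 on the hCD4- pre-pro-B arrays, and none of the 26 was below background on the latter. It lay at 4.94 and 5.05 on the hCD4+ pre-pro-B arrays. Cox6a2, a cytochrome oxidase subunit characteristic of these cells, lay at -0.93 and -0.93 in GMP and 7.89 and 8.04 on the hCD4- pre-pro-B arrays and fell by 8.89 (standard error 0.26, adjusted p = 6.85e-08). Upb1, an enzyme of pyrimidine breakdown, fell by 8.30 (-2.02 and -2.43 against 6.21 and 5.93), and Cd300c, a surface receptor, by 8.37. Lag3, an inhibitory receptor, was at least 245-fold lower and Irf7, the factor of interferon induction, at least 56.1-fold. Cd7, an immunoglobulin superfamily surface gene well above background on 1 GMP array, fell by 10.94. Il3ra was the member that rose (0.70, adjusted p = 0.0221), a call lost with quantile normalization (adjusted p = 0.181). The genes Spib, Ly6d, Ccr9, Dntt, Tcf4 and Irf8 stand in this list and in lymphoid or myeloid lists, so their falls count in both.

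Siglech, a sialic acid receptor taken as a marker of plasmacytoid dendritic cells, has 3 kept probes that disagreed. They are shown because the brightest one, which represents the gene, hardly followed the others. All lie on the plus strand of mm9, probe 1 at chr7:63034088-63034147, probe 2 at chr7:63033826-63033885 and probe 3 at chr7:63028608-63028667. Capitals mark words of 14 bases found, on either strand, in at least 10 of the 32851 RefSeq promoters; for probe 1 the commonest occurs in 42 promoters, while no word of probe 2 or probe 3 occurs in more than 1.
Siglech probe 1: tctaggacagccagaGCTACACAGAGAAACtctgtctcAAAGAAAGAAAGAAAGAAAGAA
Siglech probe 2: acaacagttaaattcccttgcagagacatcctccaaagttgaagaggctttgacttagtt
Siglech probe 3: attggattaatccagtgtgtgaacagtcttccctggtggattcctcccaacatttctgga
Probe 1 lay at 6.21 and 6.18 on the GMP arrays and 6.91 and 7.51 on the hCD4- pre-pro-B arrays, a change of -1.02 (adjusted p = 0.0013) that became 1.46 relative to the spike-in controls. Over all 12 arrays it stayed between 6.18 and 7.52. Probe 2 lay at -6.62 and -6.32 in GMP, below background, and at 7.21 and 7.23 on the hCD4- pre-pro-B arrays, at least 3650-fold lower in GMP. Probe 3 was also below background in GMP and at least 78.7-fold lower. What probe 1 hybridises to was not tested.

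The glandular kallikreins, serine proteases encoded in a tight cluster on chromosome 7, had the lowest median of the lists. Of 14 listed, 11 were kept and all 11 fell, with a median change of -8.62 (-6.87 with levels under background set to the floor), and 8 of them were below background on both GMP arrays. Klk1b5 lay at 5.12 and 4.97 on the hCD4- pre-pro-B arrays and was at least 811-fold lower in GMP, Klk1b26 at least 482-fold, Klk1 at least 282-fold and Klk1b27 at least 108-fold. Klk1 and Klk1b27 also stand in the plasmacytoid list. The family members are near copies, so signal from one could be read by the probe of another. The probe pair with the most identical bases in the family is shown to give the scale of that likeness. Klk1b27 lies at chr7:51311959-51312018 and Klk1b11 at chr7:51255119-51255178, both on the plus strand of mm9, and capitals mark the bases that differ.
Klk1b27: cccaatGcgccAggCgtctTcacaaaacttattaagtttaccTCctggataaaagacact
Klk1b11: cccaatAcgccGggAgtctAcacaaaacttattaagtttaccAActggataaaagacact
The pair shares 54 of 60 bases, and the differences, counted from the 5′ end of the probe with the Klk1b27 base first, are G7A, A12G, C15A, T20A, T43A and C44A. The Klk1b27 probe lay at 2.19 and 2.08 on the hCD4- pre-pro-B arrays, while the Klk1b11 probe lay at -6.53 and -5.89 there and was not well above background on either. Whether either probe reads the other transcript was not tested.

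**Figure D4:**
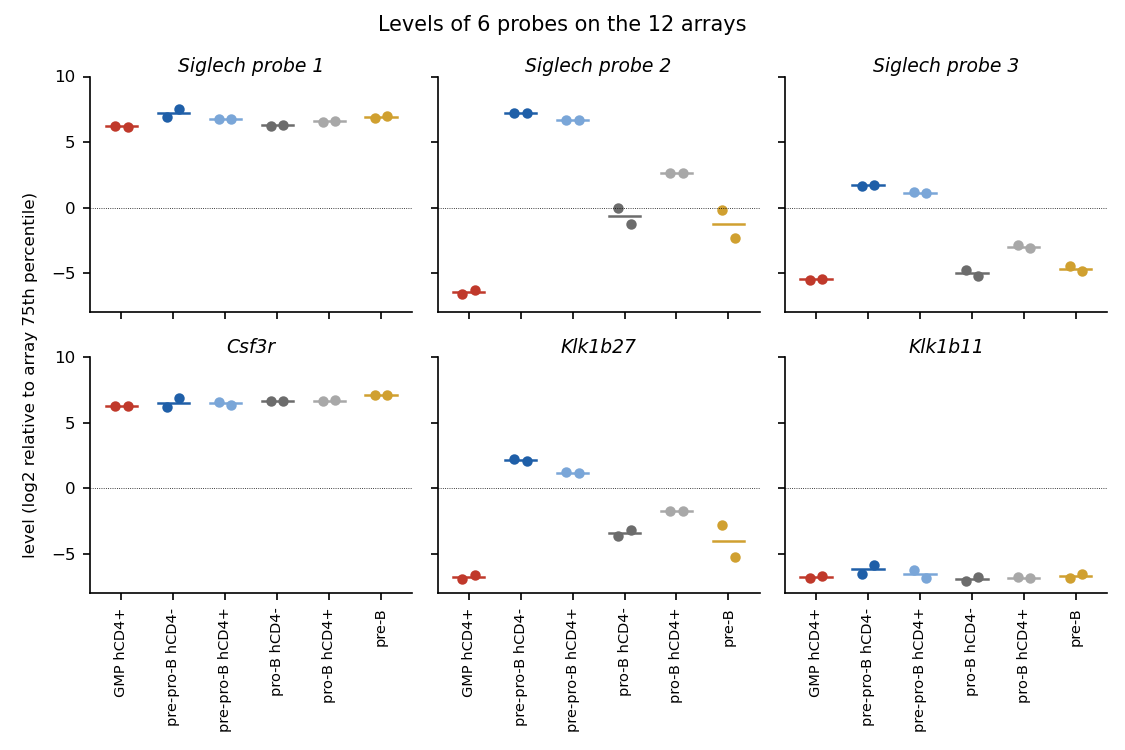
Levels of 6 probes on the 12 arrays (vertical, log2 relative to the array's 75th percentile; points are arrays, bars group means). Siglech probe 1 and Csf3r are bright and nearly flat in all 6 groups, Siglech probes 2 and 3 and Klk1b27 are high on the pre-pro-B arrays and low in GMP, and Klk1b11 stays at background throughout.

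Genes of classical dendritic cells and of class II presentation were lower in GMP too. Of 16 kept classical dendritic cell genes 14 fell and none rose, with a median change of -4.14. Itgax, the integrin CD11c, lay at -3.45 and -3.58 against 5.03 and 5.08 and fell by 8.57 (adjusted p = 1.1e-05). Cd209a, a lectin of dendritic cells, was at least 114-fold lower (at least 7.89-fold by its other probe), and Clec9a, a receptor for dead cells on cross-presenting cells, fell by 5.20. Of 12 kept class II genes 11 fell, with a median change of -3.37. Cd74, the invariant chain, lay at -2.93 and -4.66 in GMP and 6.41 and 6.27 on the hCD4- pre-pro-B arrays and fell by 10.13, H2-Eb1 fell by 10.23, each with 1 GMP array well above background, and H2-Ab1 fell by 4.97. H2-Aa was at least 119-fold lower, and Ciita, the class II transactivator, at least 8.63-fold, a call that ended relative to the spike-in controls. Only H2-DMa among the 12 did not pass the test (-0.64, adjusted p = 0.295).

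T cell and natural killer markers were checked as signs of other cells. Of 17 kept T cell genes 12 fell in GMP and none rose, with a median change of -2.94 (-2.29 with levels under background set to the floor). Thy1 fell by 6.07, Cd8a was at least 60.6-fold lower and mouse Cd4 fell by 2.63 (0.99 and 1.27 against 3.72 and 3.80; at least 6.25-fold lower by its other probe). Cd3d was not well above background on any of the 4 arrays, and Cd3e overlapped (0.26 and 1.11 against 0.42 and 1.81). Of 14 kept natural killer and innate lymphoid genes 3 rose and 6 fell. Klrd1 (CD94) was at least 260-fold lower in GMP, whereas Klrb1c (NK1.1) was below background on all 4 arrays. The summed T cell signal, on the log2 scale, was 2.12 and 2.52 in GMP and 5.06 and 5.18 on the hCD4- pre-pro-B arrays. Its part in the results was not tested.

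Some antibody transcripts were high on the hCD4- pre-pro-B arrays. Of 15 kept plasma cell and immunoglobulin genes 1 rose and 8 fell. Igh-VJ558, a heavy chain variable region, lay at -6.79 and -6.49 in GMP and 5.31 and 6.67 on the hCD4- pre-pro-B arrays and was at least 1560-fold lower (adjusted p = 0.000158). Of its other kept probes, 1 was at least 932-fold lower and 1 at least 11.3-fold lower, and the last was not well above background on any of the 4 arrays. Igj (now Jchain), the joining chain of secreted antibody, lay at 1.51 and 2.40 on the hCD4- pre-pro-B arrays and was at least 95.1-fold lower in GMP. It lay at 2.37 and 1.96 on the hCD4- pro-B arrays and on the hCD4+ arrays at -3.42 and -3.64 for pre-pro-B and -3.64 and -6.73 for pro-B cells. Igk-C, the kappa constant region, was below background on all 4 arrays, and so was Prdm1, the plasma cell factor, while Sdc1 (CD138) fell by 4.30.

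**Figure D5:**
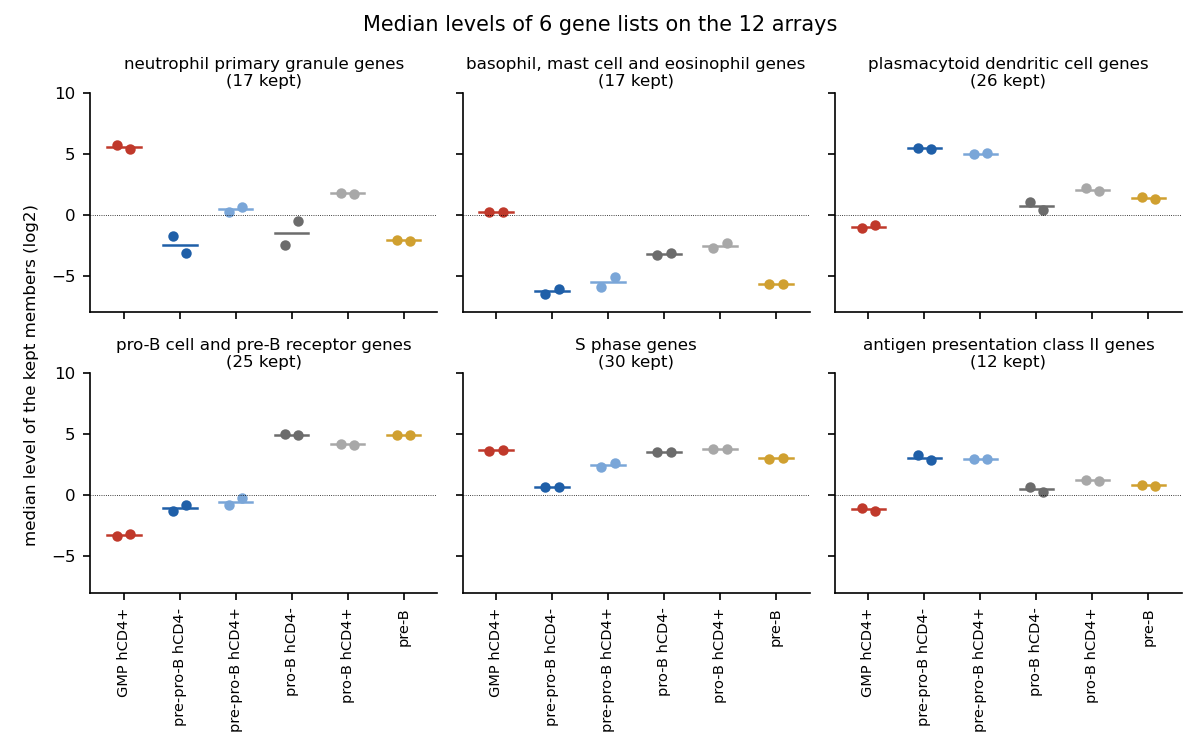
Median level of the kept members of 6 gene lists on each of the 12 arrays (vertical, log2 relative to the array's 75th percentile; points are arrays, bars group means). The granule and basophil medians are highest in GMP and the plasmacytoid and class II medians in both pre-pro-B groups; these are levels, with no test between the groups outside the comparison.

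Cell cycle genes were higher in GMP with few exceptions. All 30 S phase genes were kept and rose, with a median change of 3.07, and of 27 G2/M genes 24 rose and none fell, with a median change of 2.35. Gins1, a subunit of the replicative helicase, lay at 2.88 and 2.97 in GMP and -1.39 and -1.38 on the hCD4- pre-pro-B arrays and rose by 4.31 (standard error 0.13, adjusted p = 8.37e-08). Mcm6, a further helicase subunit, lay at 6.64 and 6.73 against 3.85 and 3.77 and rose by 2.88, and Rrm2, the ribonucleotide reductase subunit, rose by 3.14. Cdk1, the mitotic kinase, rose by 4.12 (at least 2.44-fold and 1.35-fold higher by its other probes), Plk1 by 2.37 and Mki67, the proliferation antigen, by 1.93 (4.90 and 5.10 against 3.30 and 2.85). In all of these genes the groups lay further apart than the replicates of either.

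The cyclins and their inhibitors did not move as a block. Of 17 kept, 7 rose and 6 fell, near the 34.7% and 30.8% of all kept genes. Cdk6 was at least 11.6-fold higher in GMP, Ccnd2 rose by 2.82 and Ccne1 by 2.79. Ccnd1 fell by 3.63 (0.95 and 0.96 against 4.78 and 4.40). The inhibitors went both ways. Cdkn2d and Cdkn1b fell by 2.38 and 1.59 (other Cdkn1b probe -2.56), or changed by 0.10 and 0.89 relative to the spike-in controls. Cdkn1a rose by 3.56, with 1 hCD4- pre-pro-B array well above background, but its other probe gave 0.097. Ccnd3 was bright in both groups and overlapped (4.41 and 4.65 against 4.57 and 4.72, adjusted p = 0.517).

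Growth and biosynthesis genes were mostly higher in GMP too. Myc lay at 3.06 and 2.85 in GMP and -5.04 and -3.82 on the hCD4- pre-pro-B arrays, 1 of them well above background, and rose by 7.38 (standard error 0.37, adjusted p = 8.36e-07). All 24 ribosome biogenesis genes rose, Myc included, with a median change of 1.89. Wdr12, which matures the large ribosomal subunit, rose by 3.65, Polr1a, the large subunit of RNA polymerase I, by 2.69 and Ncl, nucleolin, by 2.27 (5.78 and 5.61 against 3.75 and 3.10). Of 26 mitochondrial respiratory chain genes 25 rose, with a median change of 0.98, led by Cycs, cytochrome c (2.43). Of 23 kept glycolysis and pentose phosphate genes 18 rose and 3 fell, with a median change of 1.71. Hk3, the hexokinase of myeloid cells, was at least 211-fold higher, and Pgam1 rose by 3.39 (6.55 and 6.63 against 3.46 and 2.95). Slc2a3, a glucose transporter gene, fell by 3.04 and Aldoc, an aldolase isoform, by 3.79, while the isoform gene Aldoa rose by 2.15.

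Sterol synthesis and interferon genes went the other way. Of 24 sterol and fatty acid synthesis genes 2 rose and 19 fell, with a median change of -1.03 that became 1.45 relative to the spike-in controls. Insig1, which holds the sterol sensor in the endoplasmic reticulum, lay at -1.98 and -1.68 against 1.68 and 2.01 and fell by 3.67, and Srebf2, the sterol-regulated transcription factor, fell by 2.38. Of 25 kept interferon response genes 4 rose and 19 fell, with a median change of -2.38 (0.10 relative to the spike-in controls). Mx1, an antiviral GTPase, lay at -2.07 and -2.14 against 2.90 and 2.92 and fell by 5.01, Stat2, a signal transducer of the interferon receptor, fell by 3.91, and Ifi44 was at least 40.8-fold lower. The members that rose were Gbp3 (3.50), Ifitm3 (3.21), Gbp2 (2.30) and Oas1a (2.16).

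Further groups were mixed, and over all kept genes 34.7% rose and 30.8% fell. Of 25 lysosome genes 6 rose and 11 fell. Ctsg had the largest rise, and Ctsl, a cysteine cathepsin, fell by 4.79, Lgmn, legumain, by 4.22 and Ctsb by 3.18 (3.90 and 4.05 against 7.11 and 7.19). Of 25 secretory pathway genes 14 rose and 4 fell, with Sdf2l1 the largest rise (2.75) and Herpud1 and Xbp1 among the falls (-1.26 and -0.98; 1.22 and 1.50 relative to the spike-in controls). Of 15 DNA methylation and demethylation genes 9 rose and 5 fell. The maintenance genes Uhrf1 and Dnmt1 rose by 3.04 and 2.29, and the de novo methylase Dnmt3b rose by 2.58 (other probes 1.42 and 2.18). The de novo methylase Dnmt3a fell by 0.83 and the dioxygenase Tet1 by 1.45 (other probes -2.95 and -1.30). Relative to the spike-in controls the changes of Dnmt3a and Tet1 turned to rises (1.65 and 1.03). Of 14 kept genes of the Bcl2 family 8 rose and 3 fell, Bcl2 rising by 1.39 and the death gene Bmf being at least 6.64-fold lower.

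Of 16 V(D)J recombination and end joining genes 5 rose and 4 fell, near the 34.7% and 30.8% of all kept genes. Poll, DNA polymerase lambda, was at least 69.4-fold higher in GMP (1.81 and 2.07 against -4.87 and -5.38). Dclre1c, which encodes Artemis, fell by 3.69. Of 19 interleukin 7 and STAT5 response genes 6 rose and 8 fell, and Stat5a did not pass the test (0.20, adjusted p = 0.261). Of 22 kept immediate early and handling stress genes 8 rose and 7 fell. Their GMP replicates were unlike: Egr1, an early response factor, lay at 3.28 and 1.06 in GMP against -1.77 and -1.82, and Hspa1a, a heat shock protein gene, at 4.35 and 2.19 against -2.04 and -0.02 (adjusted p = 0.0411, and 0.199, 0.175 or 0.0511 without GMP replicate 1 or either hCD4- pre-pro-B replicate). The summed signal of that list was 8.38 and 7.51 in GMP and 8.40 and 8.72 on the hCD4- pre-pro-B arrays. The part of sample handling in other results was not tested.

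Among chemokine receptors and homing genes 5 of 17 kept rose and 9 fell, against 34.7% and 30.8% of all kept genes. Cxcr3, a receptor of activated and plasmacytoid cells, was at least 323-fold lower in GMP, and Cx3cr1, the fractalkine receptor of monocytes, rose by 2.77. Of 15 kept integrin genes 4 rose and 8 fell. Itga6 rose by 4.47 (3.50 and 3.79 against -0.96 and -0.68) and Itgb5 by 4.56, and the leukocyte chains Itgb7 and Itgb2 fell by 3.86 and 3.19, the latter not called relative to the spike-in controls. Of 15 Notch and thymic seeding genes 1 rose and 9 fell, with Notch1 falling by 2.53 and the pre-T receptor chain Ptcra at least 4.43-fold lower. Relative to the spike-in controls neither was called (Notch1 -0.05, adjusted p = 0.922; Ptcra -0.46, adjusted p = 0.396), and the bound on Ptcra does not hold there.

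The largest rises among genes measured on all 4 arrays included Cd63, a tetraspanin of granule membranes (5.07 and 4.74 against -2.62 and -2.35, change 7.39), Ifitm2 (7.35), Cd81, a tetraspanin (6.95), Cst7, a cysteine protease inhibitor of myeloid and cytotoxic cells (6.94), and Pygl, glycogen phosphorylase (6.90). Further rises were those of Gstm1, a glutathione transferase (6.67), Muc13 (6.36) and Rab38 (6.34). Rnase6, Paqr5, Gpr25, Atp1b1 and Trp53i11 were among the largest falls on that basis, with changes of -7.39, -7.38, -7.04, -6.89 and -6.84 (at least 3.6-fold lower by the other Gpr25 probe). Cd300lf was at least 390-fold lower in GMP (at least 302-fold by another probe, and -5.70 by the last, with 1 GMP array well above background). That the arrays of the 2 groups did not overlap was a condition for naming the largest rises and falls here. It held for 14774 of the 18547 kept genes.

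Motif words of other lineage factors were searched in the same promoters, on both strands, in all genes and in those beyond 4-fold. The C/EBP word TTGCNNAA was in 10.8% of all 32851 promoters, in 10.2% of those of genes that rose beyond 4-fold and in 9.42% of those that fell beyond 4-fold, against 9.05% over the kept genes. The RUNX word TGTGGT was in 16.8%, 13.6% and 16.1% of them in the same order, against 13.2% over the kept genes. The EBF word CCCNNGGG was in 13.7%, 19.2% and 17.9%, against 17.7% over the kept genes. The E protein word CAGCTG was in 16.3%, 14.8% and 22.1%, against 15.5% over the kept genes. The MYB word CAACTG was in 13.7% of all promoters, in 164 of 1327 of the genes that rose and in 156 of 1199 of those that fell, against 11.1% over the kept genes. These shares are descriptions of letters in this window, with no test, and several words can fall in one promoter.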

How the data were processed

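Bone marrow cells were sorted, and their RNA was amplified and hybridised to Agilent arrays in 1 colour, 2 arrays a group. The deposited scanner files hold intensities that the authors extracted with Feature Extraction 10.7.3.1 (protocol GE1_107_Sep09, probe positions on mm9), per the file headers. The authors' deposited value table, on a log2 scale by its values, served as an alternative.

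The background-subtracted signal was set to log2, minus the array's 75th percentile over all non-control probes, and control and outlier spots were left out. A gene was kept where both arrays of any of the 6 groups measured a probe well above background, and is represented by its probe of highest mean. One limma model (3.58.1, R 4.3.3) was fitted to all 12 arrays, with Benjamini-Hochberg adjustment over the 18547 kept genes and a threshold of 0.05. Replicate numbers were not used as a block.

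A probe not above background on both arrays of a group gives a bound, "at least N-fold": the bright mean over the dimmest well-measured signal of the other group's arrays, or the dim probe's own where higher. Named genes are those of the lists, of both ends of the comparison and of the bounds, up to 6 with the largest and 2 with the smallest change a list, 12 at each end and 8 bounds each way, plus fixed lineage genes. A further 51 were chosen after their values were seen. The members and lists were chosen with earlier results of these data known. Lists are described by counts and medians. Promoter sequences are from RefSeq (GRCm38.p6), searched in Python 3.11.15. Some genes are not reported here. The fit was tested on simulated data.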

Additional observations from a re-analysis of the deposited data

How the results depend on the processing

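Over the other scalings, filters and probe rules the total of called genes stayed between 9364 and 13981, and the counts in each direction stayed within 1.5 times those given, except that 3775 genes were lower with array-median scaling. The list medians were less steady in size. With array-median scaling 20 of the 20 moved by more than the replicate spread, each by about 0.45, as did 19 with normexp and quantile normalization, 18 in the authors' table and 15 after normexp, where shifts ran from -3.13 to 2.96. With only probes well above background on all 4 arrays 12 moved, with shifts from -3.93 to 3.49. None of these changed sign. Leaving out 1 array gave 5809 to 6375 genes higher and 4750 to 6228 lower. The fit with replicate number as a block called 6597 higher and 5969 lower; same-numbered arrays deviated together at a correlation of 0.25 over 18547 genes, but the labels do not pair them and there are only 2 pairs. Klf1 and Ms4a1, below background on all 4 arrays, changed sign after normexp (-0.90) and in the authors' table (0.10). Igll1 changed sign after normexp (-0.76) and with levels under background set to the floor (-0.325). Calls of S100a8, Il3ra, Hspa1a, Tlr4, Tlr6, Tlr13, Rag1 and Ms4a1 were lost under 1 or more of these settings. Scaling to the spike-in controls, chosen after seeing the data, shifted every change up by about the 2.44 of the all-gene median and called 15707 genes higher and 695 lower. It turned the median change of the early lymphoid list to 0.38, B lineage factors 0.43, later B cell genes 0.20, sterol synthesis 1.45 and interferon response 0.10. It turned these gene changes positive: Camp 0.081, Ccnd3 2.36, Cd3d 2.04, Cd3e 2.05, Cd79a 0.18, Cdkn1b 0.89, Cdkn2d 0.10, Csf2rb 0.78, Csf3r 2.23, Dnmt3a 1.65, Ebf1 1.99, Fcer1g 1.37, H2-DMa 1.83, Hba-a1 2.19, Herpud1 1.22, Igk-C 2.02, Klrb1c 2.02, Ly6a 0.086, Ly6c1 2.09, Ms4a1 1.99, Ngp 1.93, Pax5 2.35, Prdm1 2.09, Rag1 0.38, Rag2 2.30, Retnlg 1.69, S100a9 2.35, Siglech 1.46, Srebf2 0.10, Tcf3 2.32, Tet1 1.03, Tlr9 1.27, Tpsb2 2.29, Tyrobp 0.10, Xbp1 1.50 and Zeb2 2.24. It ended the calls of Bach2, Bcl11a, Cd4, Ciita, Ctsb, Ctss, Irf8, Itgb2, Itgb3, Notch1, Ptcra, Ptprc, Rara, Slc2a3 and Tlr7. Which scaling matches the RNA content of the cells was not tested. With 2 arrays a group, the number of arrays limits the precision, and levels near background carry only bounds.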

Other observations

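Grouped by the letters that open their symbols, 151 families had at least 10 kept genes, a grouping chosen after the data were seen. The highest median change was that of the Mcm genes, helicase subunits of replication (2.94, 10 kept, 8 higher and 0 lower in limma). The Hist genes, replication-dependent histones, followed in size with 48 kept, 40 higher and 6 lower (median 1.85). Nup genes of the nuclear pore had 15 of 19 higher and 1 lower (median 1.40), Timm genes of mitochondrial import 11 of 11 higher (median 1.40), and Ndufb genes of respiratory complex I 10 of 10 higher (median 1.37).

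The lowest medians were those of the Klk genes (-6.61, 12 of 15 lower and 1 higher), the Klra genes, natural killer receptors (-2.54, 7 of 11 lower and 0 higher), and the Irf genes, interferon regulatory factors (-2.45, 10 of 11 lower and 0 higher). Of 75 kept genes with a Cd symbol, 47 were lower and 16 higher (median -1.17). Over all kept genes 34.7% were higher and 30.8% lower. No test was made on these families.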
